A study of Rattus norvegicus with 6 samples.

Results

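Genes of astrocytes and of glutamate uptake were looked up by symbol in the spinal cord RNA-seq of rats with spared nerve injury (SNI), and 9 of 10 symbols matched a row among the 22050 genes of the table. The 9 genes are *Slc1a2*, *Slc1a3*, *Glul*, *Gfap*, *Aqp4*, *Gja1*, *Aldh1l1*, *S100b* and *Fabp7*. *Serpina3n* matched no row and is not analysed here. Libraries of spinal cord were made for 3 Sham rats, operated without nerve injury, and 3 SNI-NP rats, in which sciatic nerve branches other than the sural were injured as a model of neuropathic pain (NP). All were adult male Sprague-Dawley rats, and the labels name no genetic change or drug. Each library is called a rat here, but the labels give a replicate number and no animal, so the p-values measure the spread between these libraries, which may be technical. The time after surgery, the side and the segment of cord sampled for sequencing are not given in the sources used here.

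Astrocytes take up the glutamate that neurons release. *Slc1a2* encodes GLT-1 and *Slc1a3* encodes GLAST, the transporters that carry glutamate into astrocytes, and *Glul* encodes glutamine synthetase, which turns it into glutamine for return to neurons. Spinal astrocytes are also known for a reactive state after nerve injury, in which the filament protein encoded by *Gfap* commonly increases, and loss of glutamate uptake in the dorsal horn is a classical theme of pain research.

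The 9 genes were compared between the groups on estimated counts, scaled to CPM (counts relative to the total of the library), by edgeR's quasi-likelihood test over all 14426 genes with sufficient counts. The libraries held 16670760 to 18151156 counts. The label of the tissue was checked against markers. *Gfap*, *Aqp4* and the other astrocyte genes were present in all 6 libraries, and so were neuron genes. The genes of peripheral nerve were also abundant. *Prx*, a gene of myelinating Schwann cells, was at 875 to 1329 FPKM (a level per length of gene), above *Mog*, a gene of central myelin, at 27.0 to 80.03 FPKM. *Scn10a*, a sodium channel gene of sensory ganglion neurons, was at 14.3 CPM in SNI-NP rat 1 and at 88.1 to 277 CPM in the other 5 libraries. Bulk tissue cannot tell fewer astrocytes apart from less RNA per astrocyte.

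*Slc1a2* and *Fabp7* were lower in SNI-NP rats at an unadjusted p-value under 0.05, and no other of the 9 genes passed. That is 2 of 9 genes, against 10.8% of all genes tested. With Benjamini-Hochberg adjustment over all genes, 0 of the 9 passed by edgeR, where 0% of all genes did, and 0 by the DESeq2 Wald test, where 1.48% of all genes did. At the unadjusted threshold DESeq2 also gave 2 of the 9, against 11.7% of all genes. Limma on log2 FPKM gave 0 of the 9 with adjustment, where 2 of 14426 genes passed. Without adjustment it gave 2 of the 9, where 1677 of all genes passed (484 higher, 1193 lower). The fitted log2 fold change was below 0 for 8 of the 9 genes, against 49.1% of all genes tested. The median of the 9 was -0.20, whereas the median of all genes tested was 0.01. Without Sham rat 1 only 5 of the 9 were below 0, with a median of -0.13, and the median was -0.51 without Sham rat 2 and -0.35 without SNI-NP rat 1. The count of genes past the unadjusted threshold rested on single libraries. It was 6 of 9 without Sham rat 2, where 2134 of 14593 genes passed. It was 1 without Sham rat 3 or without SNI-NP rat 2, beside 1019 of 14616 and 1385 of 14584 genes. It was 0 without Sham rat 1 or without SNI-NP rat 3, beside 908 of 14616 and 917 of 14592 genes. With all libraries 1565 of 14426 genes passed, so the count over all genes moved in the same direction.

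The glutamate transporter gene *Slc1a2* (ENSRNOG00000005479) showed the largest change of the 9. It was at 36.6, 12.8 and 28.1 CPM in Sham rats 1, 2 and 3, and at 16.4, 8.72 and 11.7 CPM in SNI-NP rats 1, 2 and 3. Sham rat 2 lay among the SNI-NP rats, below SNI-NP rat 1, and the other 2 sham rats lay above all 3 SNI-NP rats. The Sham mean was 25.8 ± 12.02 CPM and the SNI-NP mean 12.3 ± 3.87 (SD over 3 rats each). By edgeR the log2 fold change of *Slc1a2* was -1.08 with a standard error (SE) of 0.39, an unadjusted p of 0.0274 and an adjusted p of 0.436. Without Sham rat 2 it was -1.40, and without SNI-NP rat 1, the library with the least signal of ganglion neurons, it was -1.34. The unadjusted p-value rose above 0.05 without Sham rat 1 (-0.75), without Sham rat 3 (-1.03), without SNI-NP rat 2 (-0.88) and without SNI-NP rat 3 (-1.07).

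**Figure D1:**
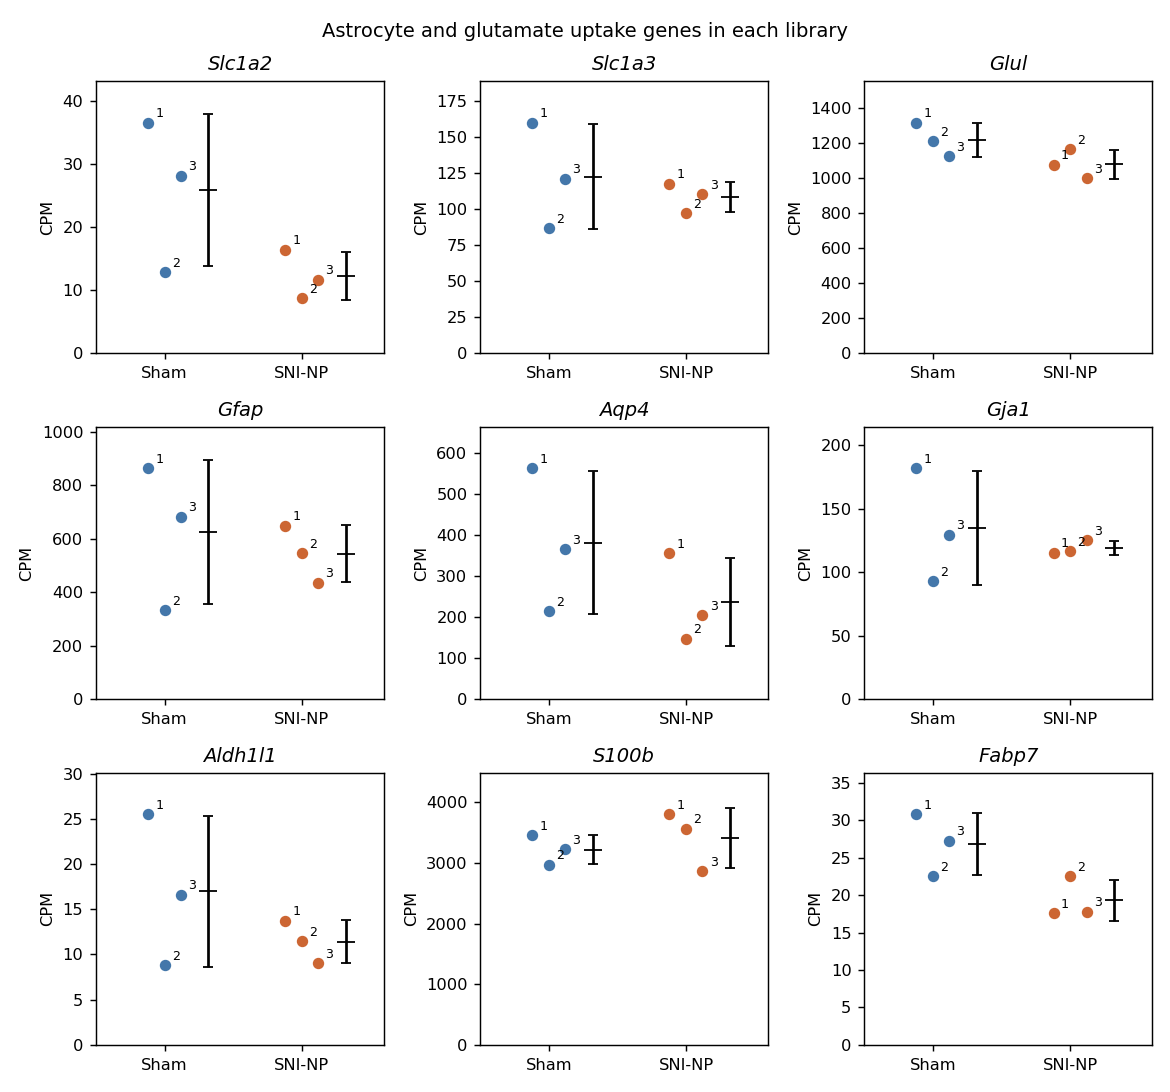
Level of each of the 9 genes in CPM (vertical axis, from 0) in the sham and SNI-NP rats. Points are single libraries with their replicate number, and the black bar gives the mean and SD of 3 libraries. *Fabp7* is the single gene without overlap, and Sham rat 2 is the lowest sham rat for all genes except *Glul*.

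The other uptake transporter gene, *Slc1a3* (ENSRNOG00000016163), was at 160, 86.9 and 121 CPM in Sham and at 118, 97.3 and 111 CPM in the SNI-NP rats. The SNI-NP rats all fell within the range of the sham rats. The log2 fold change was -0.18 (SE 0.21, adjusted p = 0.772 by edgeR), which did not exceed the spread among the rats, and without Sham rat 1 it was 0.05. *Glul* (ENSRNOG00000049560) was at 1315, 1209 and 1124 CPM in Sham and at 1074, 1163 and 997 CPM in the SNI-NP rats. Its groups overlapped through SNI-NP rat 2, and its log2 fold change was -0.17 (SE 0.12, adjusted p = 0.586 by edgeR).

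*Gfap* (ENSRNOG00000002919), the gene of the astrocyte filament, was not higher in SNI-NP rats. It was at 863, 332 and 682 CPM in Sham and at 648, 547 and 435 CPM in the SNI-NP rats. The lowest and the highest of the 6 values were both in sham rats. The log2 fold change was -0.20 (SE 0.33, adjusted p = 0.837 by edgeR), -0.51 without Sham rat 2 and 0.09 without Sham rat 1.

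*Aqp4* (ENSRNOG00000016043), the gene of the water channel of astrocyte endfeet, was at 562, 215 and 366 CPM in Sham and at 355, 147 and 205 CPM in the SNI-NP rats. The groups overlapped in the middle, and the log2 fold change was -0.69 (SE 0.41, adjusted p = 0.550 by edgeR). Its unadjusted edgeR p-value fell to 0.0228 without SNI-NP rat 1, where the log2 fold change was -1.11, and to 0.0359 without Sham rat 2, where it was -0.98.

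*Gja1* (ENSRNOG00000000805) encodes connexin 43, which couples astrocytes by gap junctions. Its values were 182, 93.0 and 129 CPM in Sham and 115, 117 and 125 CPM in SNI-NP, so that the SNI-NP rats lay close together inside the range of the sham rats. The log2 fold change of *Gja1* was -0.18 (SE 0.22) and turned to 0.08 without Sham rat 1. *Aldh1l1* (ENSRNOG00000047023), a folate enzyme gene used as an astrocyte marker, was at 25.5, 8.84 and 16.6 CPM in Sham and at 13.7, 11.5 and 9.04 CPM in the SNI-NP rats. All 3 SNI-NP values of *Aldh1l1* lay between the lowest and the second sham value, and the log2 fold change was -0.57 (SE 0.36, adjusted p = 0.569 by edgeR). Without Sham rat 2 the log2 fold change of *Aldh1l1* was -0.88 with an unadjusted edgeR p-value of 0.0125.

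*Fabp7* (ENSRNOG00000000814) encodes the brain fatty acid binding protein, which is found in radial glia, in astrocytes and also in glial cells of sensory ganglia. It was at 30.8, 22.5 and 27.2 CPM in Sham and at 17.6, 22.5 and 17.8 CPM in the SNI-NP rats. The SNI-NP values were all below the Sham values, although SNI-NP rat 2 (22.492 CPM) almost met Sham rat 2 (22.534 CPM). No other of the 9 genes was free of overlap, and 8.15% of all genes tested had every SNI-NP value below every Sham value. None of the 9 had every SNI-NP value above, against 10.4% of all genes tested, and 18.5% of all genes had no overlap in either direction. The mean was 26.9 ± 4.15 CPM in Sham and 19.3 ± 2.77 in SNI-NP (SD over 3 rats each). The log2 fold change of *Fabp7* was -0.48 by edgeR, with an SE of 0.17, an unadjusted p of 0.0222 and an adjusted p of 0.436. The unadjusted threshold was missed without Sham rat 1 (-0.38), without SNI-NP rat 1 (-0.41) and without SNI-NP rat 3 (-0.45). The 8 genes of ganglion neurons summed to 576, 985 and 1204 CPM in Sham and to 199, 1723 and 1209 CPM in the SNI-NP rats, and the part of ganglion tissue in the level of *Fabp7* was not tested. An exact permutation test of log2 CPM, 3 rats against 3, gave a two-sided p of 0.1 for *Fabp7*, the smallest value this design allows, and between 0.2 and 0.8 for the other 8 genes.

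*S100b* (ENSRNOG00000001295), which encodes a calcium binding protein of astrocytes that is also abundant in Schwann cells, alone among the 9 had a fold change above 0. It was at 3463, 2975 and 3225 CPM in Sham and at 3806, 3569 and 2861 CPM in the SNI-NP rats. The lowest and highest values were both in SNI-NP rats, and the log2 fold change was 0.08 (SE 0.14, adjusted p = 0.851 by edgeR). Beside it, the Schwann cell gene *Prx* was at 4639, 4498 and 4032 CPM in Sham and at 6419, 4669 and 5799 CPM in the SNI-NP rats, and the part of Schwann cells in the level of *S100b* was not tested.

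**Figure D2:**
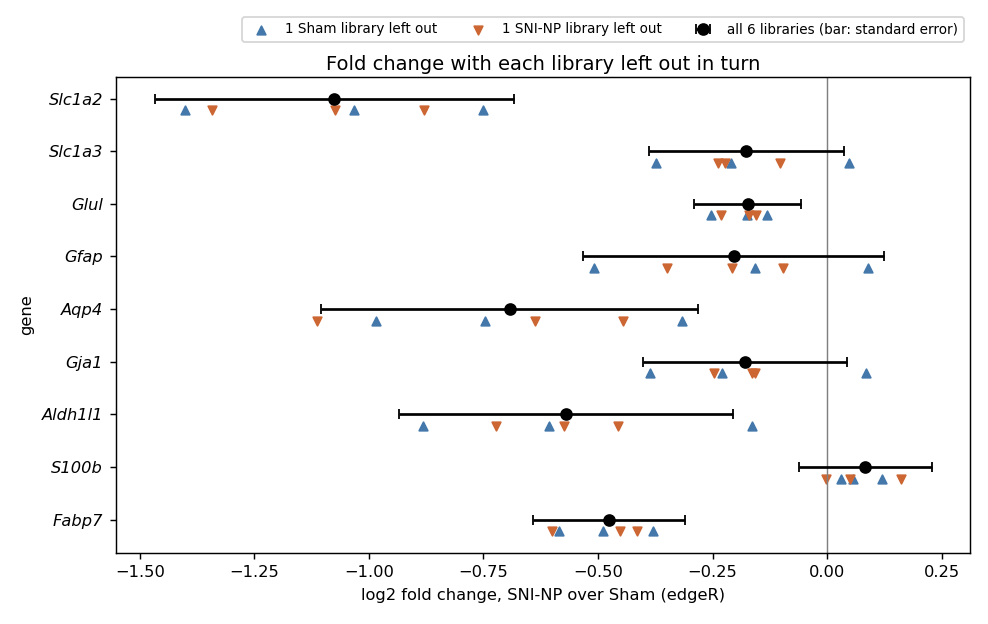
Log2 fold change of each of the 9 genes, SNI-NP over Sham, by edgeR (horizontal axis). Black points with SE bars use all 6 libraries, and triangles leave out 1 library each; *Slc1a2*, *Aqp4*, *Aldh1l1*, *Fabp7* and *Glul* stay below 0 in each of these fits, whereas *Gfap*, *Gja1*, *Slc1a3* and *S100b* cross 0 in 1 fit each.

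Levels were ordered between genes by FPKM. In the sham rats *S100b* was highest at 2200 ± 125 FPKM (SD, n = 3), followed by *Glul* at 496 ± 38.2, *Gfap* at 234 ± 95.9 and *Aqp4* at 77.3 ± 34.4. *Gja1*, *Fabp7*, *Slc1a3* and *Slc1a2* came next, at 43.5 ± 13.7, 32.6 ± 4.41, 31.4 ± 8.84 and 29.5 ± 13.3 FPKM, and the values of these 4 genes overlapped. *Aldh1l1* was lowest at 6.32 ± 3.01. The highest sham rat for *Aldh1l1* (9.41) was below the lowest for *Slc1a2* (15.1), and the lowest for *Gfap* (130) was above the highest for *Aqp4* (113). In the SNI-NP rats *Slc1a2* was at 13.6 ± 3.95 FPKM, below the 22.9 ± 3.79 of *Fabp7* and the 27.1 ± 1.96 of *Slc1a3* without overlap. The FPKM of *Slc1a2* rests on a gene length of 0.882 kb, as the deposited counts and FPKM give it, which is shorter than the coding sequence of this transporter, so its place in the order is uncertain. The CPM, the fold change and the ratios of *Slc1a2* use the same counts. Whether these counts stand for the whole transcript was not tested. All counts of the 9 genes were whole numbers.

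All of the 9 genes except *Glul* and *S100b* varied more among the sham rats than most genes did. The ratio of the highest to the lowest sham rat, with 0.5 CPM added, was 2.78 for *Slc1a2* and *Aldh1l1*, 2.61 for *Aqp4*, 2.59 for *Gfap*, 1.95 for *Gja1* and 1.84 for *Slc1a3*, against a median of 1.22 over the 9435 genes with a mean of at least 10 CPM. The ratio of *Gfap* was above that of 98.1% of those genes. *Fabp7* was at 1.36, above 72.3% of them, and *Glul* (1.17) and *S100b* (1.16) were below the median. In 8 of the 9 genes Sham rat 1 was highest, Sham rat 3 next and Sham rat 2 lowest, and 21.1% of all genes tested had this order. The exception was *Glul*. The order was looked for after the values had been seen. It was shared by 23 of 29 other astrocyte identity genes and by 9 of 9 oligodendrocyte genes, and it was seen in 1 of 34 reactive astrocyte genes, 0 of 5 Schwann cell genes and 0 of 5 genes of meninges and fibroblasts.

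Among the sham rats the oligodendrocyte genes moved with the astrocyte genes, and some other markers moved against them. The oligodendrocyte list summed to 41326, 30589 and 34168 CPM in Sham rats 1, 2 and 3, and the fibroblast gene *Dcn* was at 632, 1428 and 817 CPM. Sham rat 2 was thus low in astrocyte identity and oligodendrocyte genes and high in *Dcn*. The microglia and macrophage list was highest in Sham rat 2, at 508 CPM against 382 and 455 in Sham rats 1 and 3. In the SNI-NP rats the oligodendrocyte list summed to 40346, 30267 and 33306 CPM, close to the sham range. *Mbp* made up most of each sum, at 33018 CPM in Sham rat 1 and 34303 CPM in SNI-NP rat 1. The mean log2 CPM of the 9 oligodendrocyte genes, relative to its mean over the 6 libraries, was 0.68, -0.33 and 0.22 in Sham. It was 0.10, -0.37 and -0.31 in the SNI-NP rats, and the median log2 fold change of these genes was -0.44. The reactive astrocyte list, in contrast, was highest in Sham rat 2, at 6090 CPM against 4133 and 4789 in Sham rats 1 and 3. The part of these differences in tissue makeup in the fold changes of the astrocyte genes was not tested beyond the comparisons that follow.

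**Figure D3:**
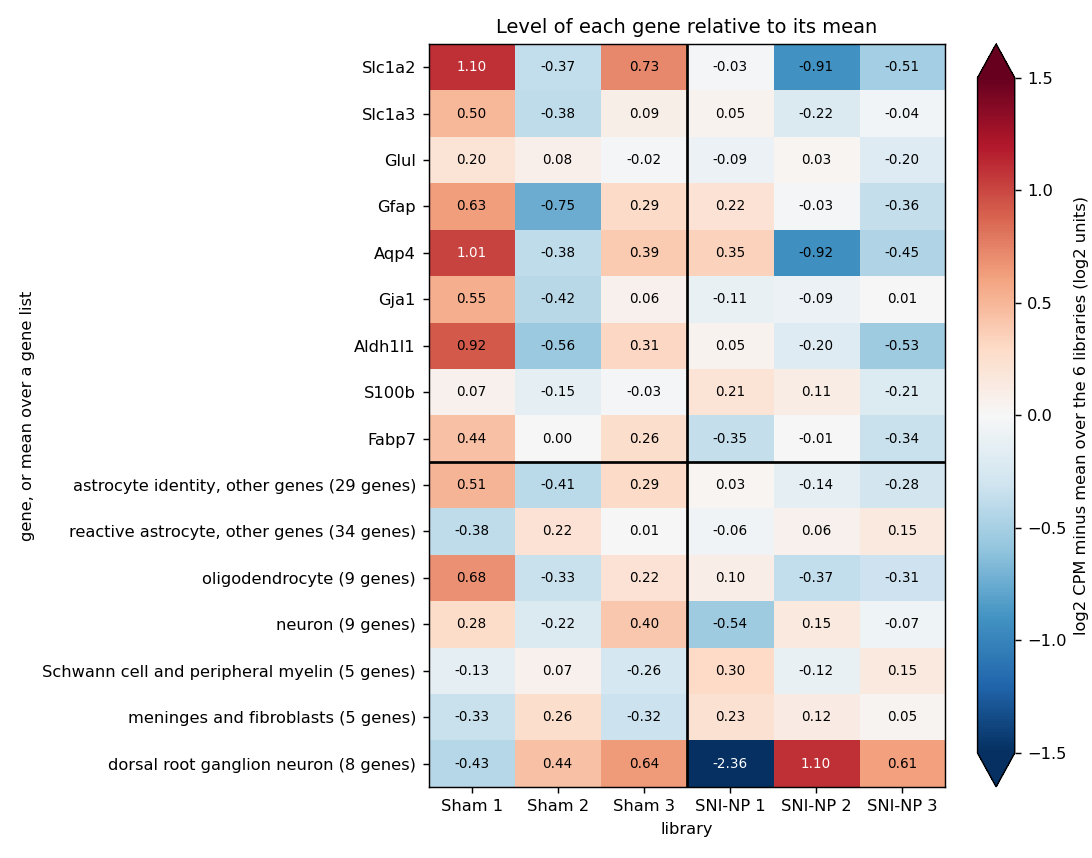
Log2 CPM of each gene (upper rows), or its mean over a marker list (lower rows), minus its mean over the 6 libraries, by library; red is above and blue below that mean, in log2 units. Sham rat 1 is above and Sham rat 2 below the mean for the astrocyte identity and oligodendrocyte lists and for all of the 9 genes except *Glul*, although *Fabp7* is at the mean to 2 decimals in Sham rat 2, and the ganglion neuron list is at -2.36 in SNI-NP rat 1.

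Since the libraries differed in their astrocyte signal, each gene was also set against *Gfap* of the same library, a scale chosen after the values had been seen. On this scale *Slc1a2* separated the groups. For 100 counts of *Gfap* there were 4.24, 3.87 and 4.12 counts of *Slc1a2* in Sham and 2.53, 1.59 and 2.68 in the SNI-NP rats. Sham rat 2, which had lain among the SNI-NP rats in CPM, was now beside the other sham rats. The mean ratio was 4.07 ± 0.19 in Sham and 2.27 ± 0.59 in SNI-NP (SD over 3 rats each), a log2 difference of -0.88, with an exact two-sided permutation p of 0.1, the smallest that 3 against 3 allows.

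*Aldh1l1* also separated the groups, with 2.96, 2.66 and 2.43 counts for 100 of *Gfap* in Sham and 2.12, 2.10 and 2.08 in the SNI-NP rats, a log2 difference of -0.35. These were 2 of the 8 genes set against *Gfap*, and 2.29% of all genes tested lay wholly below on the same scale. None of the 8 lay wholly above, against 0.936% of all genes. These shares are not a like comparison, because a gene that does not follow *Gfap* takes on its spread in the ratio. On this scale the highest sham rat over the lowest was 2.39 for *Glul* and 2.23 for *S100b*. It was 1.10 for *Slc1a2* and 1.22 for *Aldh1l1*. The share among other astrocyte genes was not computed, so 2 of 8 is a description only. *Aqp4* was at 65.2, 64.6 and 53.7 in Sham against 54.8, 27.0 and 47.0 in SNI-NP, and overlapped through Sham rat 3 and SNI-NP rat 1. *Slc1a3*, the other transporter, had 20.8 ± 4.63 counts for 100 of *Gfap* in Sham and 20.5 ± 4.295 in SNI-NP (SD over 3 rats each), and *Gja1* had 22.7 ± 4.72 and 22.6 ± 5.59, so neither differed beyond its spread.

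**Figure D4:**
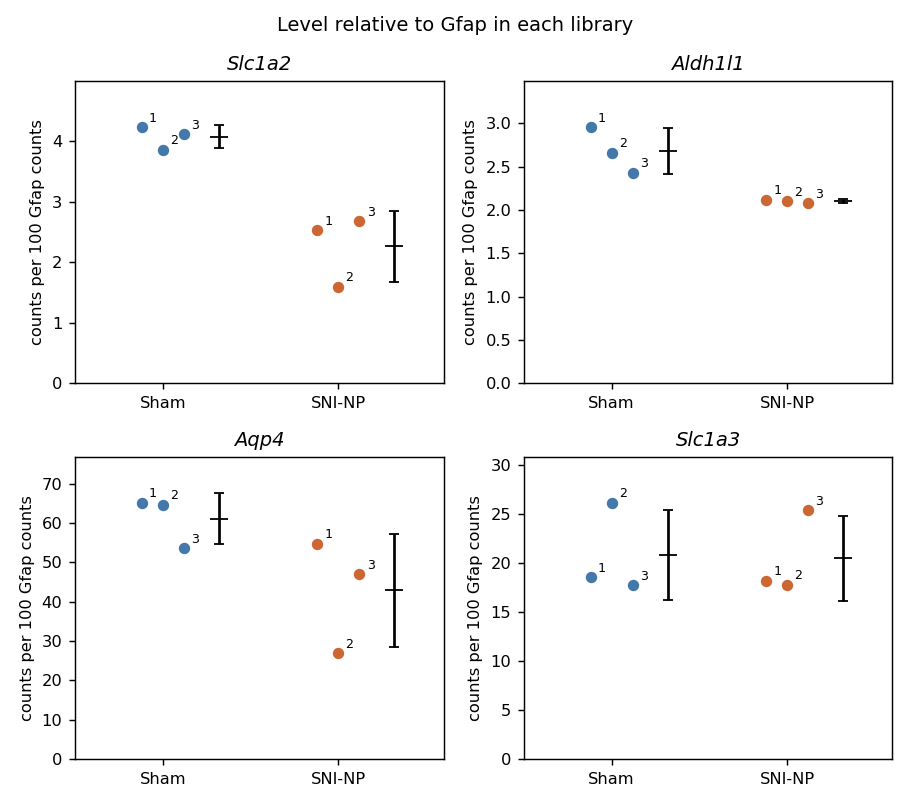
Counts of 4 genes for 100 counts of *Gfap* in the same library (vertical axis, from 0). Points are single libraries with their replicate number, and the bar is the mean and SD of 3; *Slc1a2* and *Aldh1l1* do not overlap between the groups, and *Aqp4* and *Slc1a3* do.

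*Slc1a2* was also set against other genes of the 9. These genes had the same order of the sham rats as *Slc1a2*, so the ratios are not independent checks. The share of all genes that separate on these scales was not computed. Set against *Aqp4*, *Aldh1l1* or *Slc1a3*, the SNI-NP rats again all had lower ratios than the sham rats, with log2 differences of -0.31, -0.53 and -0.86. Against *Aqp4* the groups almost met, at 5.98 counts for 100 in Sham rat 2 and 5.92 in SNI-NP rat 2. Against *Gja1* the groups overlapped (-0.87), since Sham rat 2 was at 13.8 and SNI-NP rat 1 at 14.2. With the mean level of the 29 other astrocyte identity genes as a covariate in edgeR's fit, *Slc1a2* had a log2 fold change of -0.54 (SE 0.21) and passed the unadjusted threshold, as did 9.59% of all genes. *Gfap* turned to 0.28 there (SE 0.096) and passed as well, *Fabp7* did not pass (-0.36, SE 0.16), and *Aldh1l1* was at -0.05. In that fit 0 of the 9 genes passed with adjustment, and neither did any other gene.

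The starts of *Slc1a2* and *Gfap* are shown because this pair carries the contrast above, and they differ in base composition. The 250 bases before the first RefSeq start of *Slc1a2* lie at chr3:109459859-109460108, plus strand, and those of *Gfap* at chr10:88361662-88361911, minus strand, both in the build GRCr8, which is not the build of the counts. Capitals mark every CG pair.
*Slc1a2*: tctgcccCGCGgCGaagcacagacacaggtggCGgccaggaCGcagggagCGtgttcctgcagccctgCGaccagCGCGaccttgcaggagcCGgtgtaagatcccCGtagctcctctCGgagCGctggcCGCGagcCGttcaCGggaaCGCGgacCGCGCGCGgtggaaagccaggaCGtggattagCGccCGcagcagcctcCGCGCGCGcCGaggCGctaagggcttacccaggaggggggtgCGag
*Gfap*: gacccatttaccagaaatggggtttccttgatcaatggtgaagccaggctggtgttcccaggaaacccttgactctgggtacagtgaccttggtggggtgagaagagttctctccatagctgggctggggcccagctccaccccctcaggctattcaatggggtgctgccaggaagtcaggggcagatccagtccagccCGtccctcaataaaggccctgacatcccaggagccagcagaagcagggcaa
The *Slc1a2* window held 33 CG pairs, more than 96.4% of the 33469 RefSeq windows of this length, and the *Gfap* window held 1, more than 7.83% of them. Both strands were searched for the STAT letters TTCNNNGAA, the AP-1 letters TGANTCA, the GC box GGGCGG and the CCAAT box CCAAT, which 7.67%, 6.34%, 30.5% and 34.0% of all windows hold, and neither of these windows held any of them. A second RefSeq start of *Slc1a2* lies farther along the gene, and its window held 2 CG pairs. The counts do not say which start was used.

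All 17 other genes of glutamate transport and of the glutamate and glutamine cycle were tested, and 1 was higher and 1 lower at an unadjusted p-value under 0.05, against 4.91% and 5.94% of all genes. The count of both directions together was 1 without Sham rat 1 and 1 without SNI-NP rat 3, beside 908 and 917 of all genes. The median log2 fold change was -0.08. *Slc1a5*, a transporter of neutral amino acids including glutamine, was at 10.7, 10.9 and 13.9 CPM against 19.8, 14.6 and 16.1 CPM, with all SNI-NP rats above and a log2 fold change of 0.51 (SE 0.18). None of the 17 passed with adjustment by edgeR or by DESeq2. *Slc7a11*, the cystine and glutamate exchanger, had a log2 fold change of -0.75 (SE 0.40), *Gls2* of -0.32, *Slc38a5* of 0.40 and *Slc1a7* of 0.67 at low levels (0.29 to 0.9996 CPM), and none of these 4 passed.

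Of 31 other astrocyte identity genes, 30 were in the table and 29 were tested, and 23 of the 29 had a log2 fold change below 0, against 49.1% of all genes tested. The median was -0.27. It was -0.05 without Sham rat 1, with 16 of the 29 below 0, -0.45 without Sham rat 2 and -0.16 without SNI-NP rat 2. Beside these, 7 of 9 oligodendrocyte, 7 of 9 neuron, 6 of 9 microglia and macrophage and 3 of 5 oligodendrocyte precursor genes were also below 0. Above 0 were 5 of 5 Schwann cell, 7 of 8 ganglion neuron, 4 of 5 meninges and fibroblast and 4 of 5 ependyma genes. So were 4 of 4 erythroid, 6 of 6 neutrophil and marrow and 2 of 4 endothelial genes. The part of these cell types in the shift was not tested. The potassium channel gene *Kcnj10* was the 1 of 29 past the unadjusted threshold, which 10.8% of all genes passed, with 44.0, 21.7 and 41.6 CPM in Sham and 25.5, 24.05 and 20.8 CPM in the SNI-NP rats, a log2 fold change of -0.61 (SE 0.26, unadjusted p = 0.0495 by edgeR). Sham rat 2 lay among the SNI-NP rats here as well. Without Sham rat 2, 16 of the 29 passed, 15 of them lower, beside 2134 of all 14593 genes. Without SNI-NP rat 1, 2 passed, beside 1907 of all 14577 genes. Without Sham rat 1, Sham rat 3 or SNI-NP rat 3, 0 passed, beside 908, 1019 and 917 of all genes. *Slc4a4*, a bicarbonate transporter gene, followed at -0.62 (SE 0.28). *Slc39a12*, a zinc transporter gene, ran from 31.6 and 20.5 CPM in Sham rats 1 and 3 to 0.84 in Sham rat 2, and was at 0.75, 7.11 and 0.75 CPM in the SNI-NP rats, so it split each group. On the higher side *Entpd2* was at 0.38, *Lfng* at 0.09 and *Tril* at 0.08, and none passed.

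The genes whose profile over the 6 libraries lay nearest to that of *Gfap*, by the root mean square difference of log2 CPM centred on the mean of each gene, were *Ntsr2* (0.09), *Slc6a9* (0.12) and *Mlc1* (0.14). Nearest to *Slc1a2* were *Slc4a4* (0.25), *Fgfr3* (0.32) and *Ptgs2* (0.34). These were sought among the tested genes of the glutamate, identity and reactive astrocyte lists.

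All 34 reactive astrocyte genes were tested, and 2 were higher and 1 lower at an unadjusted p-value under 0.05, near the share over all genes (4.91% higher and 5.94% lower), with a median log2 fold change of 0.05. *Tgm1*, a transglutaminase gene, had at most 0.58 CPM in Sham and 3.34, 4.83 and 5.16 CPM in the SNI-NP rats, where edgeR gave an adjusted p of 0.117 and DESeq2 of 1.80e-08. *S1pr3*, a receptor gene for sphingosine 1-phosphate, was at 54.8, 75.4 and 74.9 CPM against 96.7, 106 and 94.5 CPM, with a log2 fold change of 0.54 (SE 0.14, unadjusted p = 0.00652 by edgeR). *Ptgs2*, the inducible cyclooxygenase gene, was lower at 4.32, 2.93 and 3.96 CPM against 2.65, 0.9996 and 1.04 CPM, a log2 fold change of -1.25 (SE 0.43). *Vim*, the gene of the filament that joins *Gfap* in reactive astrocytes, had a log2 fold change of 0.30 (SE 0.15, unadjusted p = 0.0911 by edgeR), *B3gnt5* of -0.89 and *Cp* of -0.42, and none of these 3 passed. *Vim* is also expressed by fibroblasts and endothelium. The count of genes past the threshold was 8 without Sham rat 2, 7 without SNI-NP rat 1, 5 without Sham rat 1, 2 without SNI-NP rat 3 and 3 without each other rat. Beside these, 2134 of all 14593 genes, 1907 of 14577, 908 of 14616 and 917 of 14592 passed, in the order named. Without Sham rat 3 and without SNI-NP rat 2, 1019 of 14616 and 1385 of 14584 passed.

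**Figure D5:**
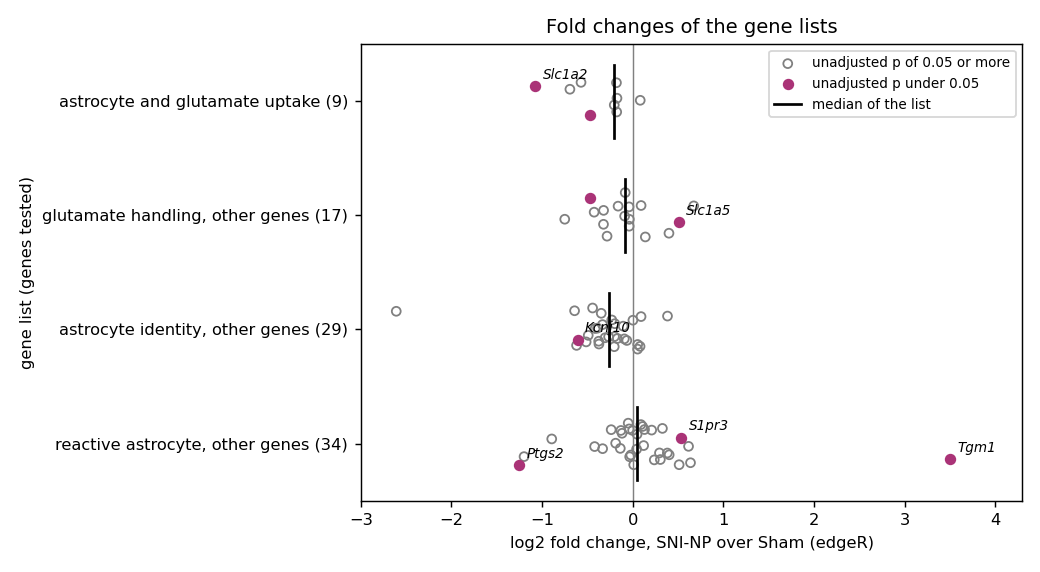
Log2 fold change, SNI-NP over Sham, by edgeR (horizontal axis) of each tested gene in 4 lists, with the number tested in parentheses. Filled points passed an unadjusted p-value under 0.05 and are named where the fold change is beyond 0.5 in size, and the black line is the median of the list, which is -0.27 for the astrocyte identity genes and 0.05 for the reactive astrocyte genes.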

How the data were processed

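RNA-seq libraries of 3 sham and 3 SNI-NP rats were grouped by the sample titles. For 22050 genes the authors deposited estimated counts, which were not normalized, and FPKM. Per their methods, reads were mapped to Rat6 and only unique sequences retained. The submitters' processing notes name FastQC, STAR and HTSeq. Use of strand is not given in the sources used here.

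After rounding of the counts, genes were filtered by filterByExpr and scaled by TMM in edgeR (version 4.0.16, R version 4.3.3), and Sham and SNI-NP were compared by its quasi-likelihood test without covariates. Benjamini-Hochberg adjustment covered the 14426 genes left. The study's methods name DESeq2, which was run as an alternative. CPM values use TMM-scaled library sizes. A count of 0 allowed up to 0.18 CPM in the shallowest library (3 counts, counting error only). Gene length followed from count, total and FPKM.

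The genes and the lists (glutamate handling, astrocyte identity, reactive astrocytes and markers of 11 other cell types) were chosen with earlier results of these data known. All matched genes of the first list were described, and from each of the 3 other astrocyte lists the 3 genes of smallest p-value in each direction, apart from 1 gene that is not reported here. Alternatives were RLE factors, DESeq2 version 1.42.0, no filter, a minimum of 10 counts in every library, a block for the replicate number, offsets by gene length (loess, span 0.5) with and without that block, limma version 3.58.1 on log2(FPKM + 0.1), and each library left out. The ratios to *Gfap* and the covariate fit were added after seeing the data. Scripts were tested on simulated data. Promoter windows (RefSeq, build GRCr8) were looked up by symbol for the genes other than *Aqp4*, and all matched.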

Additional observations from a re-analysis of the deposited data

How the results depend on the processing

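*Slc1a2*, *Fabp7*, *Aqp4*, *Aldh1l1* and *Glul* stayed below 0 in every setting run. With each library left out in turn, the log2 fold change ran from -0.508 to 0.0902 for *Gfap*, from -0.386 to 0.0845 for *Gja1*, from -0.373 to 0.0483 for *Slc1a3* (these lowest without Sham rat 2 and highest without Sham rat 1) and from -0.0025 (without SNI-NP rat 1) to 0.161 for *S100b*. With the astrocyte identity level as a covariate it was 0.281, 0.0943 and 0.0840 for *Gfap*, *Gja1* and *Slc1a3*. In that fit 6 reactive astrocyte genes passed the unadjusted threshold (2 higher, 4 lower), beside 1383 of all genes (726 higher, 657 lower). The count of all genes with an adjusted p-value under 0.05 was 0 by edgeR, 210 by DESeq2 and 2 by limma on log2(FPKM + 0.1). Over the fits that left out 1 library it was 0 to 222, with 222 without SNI-NP rat 1 and 2 without Sham rat 2, and the unadjusted count of all genes, 1565 with all libraries (708 higher, 857 lower), was 908 to 2134, with 908 without Sham rat 1, 1019 without Sham rat 3 and 917 without SNI-NP rat 3. Over the same fits, the 9 genes gave 0 to 6 at the unadjusted threshold, the glutamate handling genes 1 to 3, the astrocyte identity genes 0 to 16 and the reactive astrocyte genes 2 to 8. The glutamate handling genes gave 1 with length offsets, and the astrocyte identity genes 2 by DESeq2 and 2 with no filter. In these settings 2009, 1684 and 1675 of all genes passed the unadjusted threshold. The unadjusted count of all genes was split into 484 higher and 1193 lower by limma, and 1302 higher and 707 lower with length offsets. For these changes the cause was not tested.

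The deviations of same-numbered libraries correlated at 0.24, -0.15 and 0.06 over all genes tested. With 3 libraries a group this cannot show whether the replicate numbers pair the libraries. With the replicate block, 8 reactive astrocyte genes passed (6 higher), beside 1319 of all 14426 genes (448 higher, 871 lower). With length offsets as well, 8 passed (7 higher), beside 1558 of all genes (850 higher, 708 lower). With the block alone, *Fabp7* missed the unadjusted threshold (-0.47), and *Aqp4* passed it (-0.68). The lowest count of the 9 genes in a library was 156 (*Aldh1l1*), and 3 libraries a group with the spread among sham rats limit what could be detected.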

Other observations

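Markers of other cell types were compared at the same unadjusted edgeR p-value under 0.05, and 0 of them passed with adjustment over all genes by edgeR. By DESeq2, *Slc17a6* and *Ermn* passed with adjusted p-values of 0.00565 and 0.0441. Over all genes, 4.91% were higher and 5.94% lower at the unadjusted threshold, and with lists of 4 to 9 genes each count below is a description. Among 9 neuron genes, *Slc17a6*, the vesicular glutamate transporter that marks excitatory neurons, was at 50.1, 34.8 and 49.999 CPM in the sham rats and at 25.3, 26.8 and 27.0 CPM in the SNI-NP rats, a log2 fold change of -0.77 (standard error 0.16) without overlap. *Snap25*, a gene of transmitter release, was also lower (-0.65, standard error 0.23), and 0 of the 9 were higher. Of 9 oligodendrocyte genes 1 was lower, *Ermn* (-1.32, standard error 0.41), and 0 of 5 precursor genes passed. Of 9 microglia genes 1 was lower, *Ctss* (-0.45, standard error 0.15).

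Of 4 erythroid genes 3 were higher, among them *Alas2* at 6.24, 5.24 and 10.2 CPM in the sham rats and 22.9, 12.4 and 11.2 CPM in the SNI-NP rats. Of 6 neutrophil and marrow genes 1 was higher (*Mpo*, 1.52, standard error 0.51), of 5 ependyma genes 2 (*Ccdc153* and *Tmem212*), of 5 genes of meninges and fibroblasts 1 (*Col1a1*, 0.43, standard error 0.14) and of 5 genes of Schwann cells 1 (*Prx*, 0.36, standard error 0.15). Of 8 ganglion neuron genes and 4 endothelial genes 0 passed. The ganglion neuron list summed to 199 CPM in SNI-NP rat 1 and to between 576 and 1723 CPM in the other libraries.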
